A study of Mus musculus with 15 samples.

Results

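The genes described here belong to the unfolded protein response and to the linked ATF4 response. They were 37 genes taken by symbol: 14 chaperones and folding enzymes of the endoplasmic reticulum (ER), 4 genes of ER-associated degradation, 7 transcription factors and stress effectors, and 12 genes of amino acid metabolism that ATF4 is known to control. Each gene was read from 1 probe set, the one with the highest mean over all arrays. All 37 were on the array, among 12393 named genes, and 36 passed the filter on low values and were tested among 7909 genes. Trib3, a pseudokinase induced by ATF4 and Ddit3, did not pass, with log2 values between -0.28 and 0.39 on all 15 arrays.

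The cells were neural stem cells of the subventricular zone from adult female C57Bl6/J mice of 6 months, grown as neurospheres and used at passages 5 to 7. There were 3 groups of 5 arrays. Undifferentiated cells were kept with the growth factors bFGF and EGF, and the other groups had spent 12 h or 24 h on poly-D-lysine in 5% serum without these factors. The change of substrate, the serum and the missing growth factors coincide and cannot be told apart. The labels name no separate cultures, so the p-values describe a spread between arrays that may be technical only. In cells measured in bulk, fewer cells of a type and less RNA per cell cannot be told apart.

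The unfolded protein response matches the folding capacity of the ER to its load. The sensors Ire1, Perk and Atf6 detect misfolded protein: Ire1 splices the Xbp1 mRNA, cleaved Atf6 enters the nucleus, and Perk phosphorylates the initiation factor eIF2, which slows translation while the Atf4 mRNA is translated better. Spliced Xbp1 and cleaved Atf6 raise chaperone and degradation genes. Atf4, which is also reached through other eIF2 kinases and through growth factor signalling, raises amino acid transporters, asparagine and serine synthesis, mitochondrial folate enzymes and tRNA synthetases. Much of this control acts on splicing, cleavage and translation, which the array does not measure.

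The promoters of many of these genes carry known elements of these arms. RefSeq promoter windows of build GRCm38.p6, each with 250 bases before and 50 bases after the annotated start, were matched for 32 of the 37 genes; Atf6, Nars, Slc7a5, Hyou1 and Manf were not matched. Motifs were searched on both strands, and no matches of different motifs overlapped. The ER stress response element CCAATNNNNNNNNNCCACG, bound by Atf6 together with the factor NF-Y, was in the windows of 8 of the 32 genes (Hspa5, Hsp90b1, Calr, Canx, Pdia6, Dnajc3, Creld2 and Syvn1), against 0.137% of 27025 genes with a window. The second ER stress response element ATTGGNCCACG was found for Herpud1 and Dnajb11, against 0.0444% of all genes. The C/EBP-ATF response element core TGATGNAA, the composite site of Atf4, was found for 7 genes (Asns, Aars, Gars, Slc7a11, Chac1, Trib3 and Herpud1), against 4.51% of all genes. The core of the UPR element, TGACGTGG, was in 0.714% of all windows by gene and in 0 of the 32 genes. These matches are descriptions of letters, not measured binding.

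The 250 bases before the start are shown for 7 genes, because they cover both arms and both directions of change reported below. Sequences run 5′ to 3′ on the gene's strand, and capitals mark the matches to the 3 elements found. In Hspa5 the element began 65 bases before the start, in Pdia6 98 bases and in Calr, on the opposite strand, 162 bases. Hsp90b1 carried a match on each strand.
Hspa5, chr2:34771840-34772089 (+ strand): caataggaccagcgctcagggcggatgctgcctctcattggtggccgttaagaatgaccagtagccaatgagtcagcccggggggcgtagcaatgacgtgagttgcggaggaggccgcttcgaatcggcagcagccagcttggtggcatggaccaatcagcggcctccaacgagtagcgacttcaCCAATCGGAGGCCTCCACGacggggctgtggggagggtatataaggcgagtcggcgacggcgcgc
Hsp90b1, chr10:86705445-86705694 (− strand): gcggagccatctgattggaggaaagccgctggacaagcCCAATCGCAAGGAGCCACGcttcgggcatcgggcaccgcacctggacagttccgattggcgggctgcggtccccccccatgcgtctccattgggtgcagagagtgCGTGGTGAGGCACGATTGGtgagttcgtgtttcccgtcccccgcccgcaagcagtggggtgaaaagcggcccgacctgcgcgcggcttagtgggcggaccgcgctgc
Calr, chr8:84846932-84847181 (− strand): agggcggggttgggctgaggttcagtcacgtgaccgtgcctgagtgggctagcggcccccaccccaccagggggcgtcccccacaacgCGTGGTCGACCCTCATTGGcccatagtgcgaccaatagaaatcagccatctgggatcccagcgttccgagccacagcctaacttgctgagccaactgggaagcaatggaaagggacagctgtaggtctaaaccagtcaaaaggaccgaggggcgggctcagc
Pdia6, chr12:17266339-17266588 (+ strand): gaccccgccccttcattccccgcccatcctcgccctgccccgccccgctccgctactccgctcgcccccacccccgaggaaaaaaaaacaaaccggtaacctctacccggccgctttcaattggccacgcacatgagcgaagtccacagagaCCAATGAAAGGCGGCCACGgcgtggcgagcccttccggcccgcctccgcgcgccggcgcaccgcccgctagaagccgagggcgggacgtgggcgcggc
The windows of Asns and Gars held the Atf4 core 23 and 30 bases before the start, in Gars on the opposite strand. Herpud1 held both kinds of element, the second ER stress response element 52 bases and the Atf4 core 112 bases before its start.
Asns, chr6:7693210-7693459 (− strand): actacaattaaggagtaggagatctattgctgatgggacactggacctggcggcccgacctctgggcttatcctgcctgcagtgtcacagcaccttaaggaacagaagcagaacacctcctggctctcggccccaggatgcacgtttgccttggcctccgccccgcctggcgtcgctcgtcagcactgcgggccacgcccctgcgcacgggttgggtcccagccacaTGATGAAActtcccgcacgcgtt
Gars, chr6:55037751-55038000 (+ strand): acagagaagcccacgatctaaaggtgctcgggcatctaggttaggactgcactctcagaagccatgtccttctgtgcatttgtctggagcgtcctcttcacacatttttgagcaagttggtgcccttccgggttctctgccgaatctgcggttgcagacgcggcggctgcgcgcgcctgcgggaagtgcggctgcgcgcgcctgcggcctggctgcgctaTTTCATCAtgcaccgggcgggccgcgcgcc
Herpud1, chr8:94386179-94386428 (+ strand): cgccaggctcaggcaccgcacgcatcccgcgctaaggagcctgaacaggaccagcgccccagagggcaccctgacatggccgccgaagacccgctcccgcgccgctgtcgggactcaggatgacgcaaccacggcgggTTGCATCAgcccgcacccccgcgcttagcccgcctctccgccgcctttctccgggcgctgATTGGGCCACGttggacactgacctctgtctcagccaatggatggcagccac

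The array files and titles carry conflicting codes: 13 of 15 codes differ, and 8 arrays would change group. Groups were taken from titles. With the file codes, limma called 0 of 7909 genes at 24 h (118 at an unadjusted p under 0.05) and 0 of the 36 tested genes (3 unadjusted). The title codes end in 1 of 3 suffixes, here A, B and C, which held 5, 6 and 4 arrays and all groups. Deviations from group means correlated between arrays of the same suffix (median 0.327) more than between others (median -0.164), so values within suffixes are given too. The ratio of 3' to 5' actin probe sets, a check of RNA and labelling quality, was 1.95 ± 0.24 (SD, n = 5) in undifferentiated cells, 2.36 ± 0.15 at 12 h (two-sided exact permutation p = 0.0159, or 0.0476 after adjustment over 6 tests) and 2.78 ± 0.37 at 24 h (exact permutation p = 0.00794, or 0.0476 after the same adjustment). The same ratio for Gapdh was 1.19 ± 0.21 in undifferentiated cells, 1.29 ± 0.08 at 12 h and 1.34 ± 0.08 at 24 h (SD, n = 5). It did not differ from undifferentiated cells by the exact permutation test (p = 0.278 and 0.151, or 0.286 and 0.226 after the same adjustment). Markers of the cell cycle and of cell types moved between the groups. The summed level of 12 cell cycle markers ran from 1008 to 1714 in undifferentiated cells and from 238 to 719 at 24 h. That of 11 oligodendrocyte markers ran from 157 to 391 and from 689 to 2804. The summed level of 11 astrocyte markers ran from 804 to 2229 in undifferentiated cells and from 2577 to 7402 at 24 h. Of these astrocyte markers 8 were called higher at 24 h and 1 lower, beside 12.7% and 19.4% of all genes. For 13 neural stem and progenitor markers the sum ran from 1842 to 3557 in undifferentiated cells and from 2441 to 6124 at 24 h. Of them 4 were called higher at 24 h and 3 lower. None of 14 microglia and blood cell markers passed the filter. The part of RNA quality and cell identity in the differences below was not tested. A fit with the actin ratio as a covariate is given below, but it cannot separate the ratio from the group at 24 h. The ratio ran from 1.63 to 2.22 in undifferentiated cells and from 2.23 to 3.21 at 24 h, without overlap.

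At 12 h none of the 36 tested genes passed the test in the limma fit (adjusted p under 0.05), against 7.86% of all genes, and 8 had an unadjusted p under 0.05, against 26.3% of all genes (2077). At 24 h 3 genes were higher (Dnajb9, Calr and Ddit3) and 8 were lower (Mthfd2, Pdia6, Shmt2, Asns, Gars, Slc7a5, Dnajb11 and Manf), a share of 30.6% against 32.1% of all genes. The share called higher was 8.33% against 12.7%, and the share called lower 22.2% against 19.4%. The genes as a whole were therefore called about as often as the array's genes, and 16 had an unadjusted p under 0.05, against 42.9% of all genes. Between 12 h and 24 h none was called, against 0.417% of all genes, and 9 had an unadjusted p under 0.05, against 15% of all genes (1188). The groups did not overlap for 4 of the 36 genes at 24 h (Dnajb9 above; Mthfd2, Shmt2 and Gars below), against 25.1% of all genes, and for none at 12 h, against 8.16%.

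The split between directions changed with the scaling of the values. Centring each array on its median added 0.145 to every 24 h difference on the log2 scale, and the median of all genes moved from -0.06 to 0.09. The calls were then 4 higher (Dnajb9, Ddit3, Atf6 and Herpud1) and 3 lower (Mthfd2, Shmt2 and Asns), with 1431 genes higher and 1110 lower over the array against 1003 and 1533. The share of all genes called was again 32.1%. After quantile normalization the calls were 5 higher and 7 lower, against 36.6% of all genes called either way. Over the array 1588 genes were then higher and 1304 lower. With the suffix as a block, 3 genes were higher at 12 h (Calr, Ddit3 and Xbp1) and 3 lower (Atf4, Gars and Mthfd2), against 18.7% of all genes called. The same block gave 5 higher and 9 lower genes at 24 h, against 41.8% of all genes, and 1 lower gene, Pdia6, between the times, against 2.55%. With the run of consecutive title codes as a block, 3 were higher and 2 lower at 12 h, against 14.8% of all genes, and 5 were higher and 9 lower at 24 h, against 38.9%. With the actin ratio as a covariate limma called no gene of the 36 at 24 h, against 13 of all genes (0.164%). An unadjusted p under 0.05 was then found for 10 of the 36, against 24.2% of all genes (1914). As said above, this fit cannot separate the actin ratio from the group at 24 h.

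**Figure D1:**
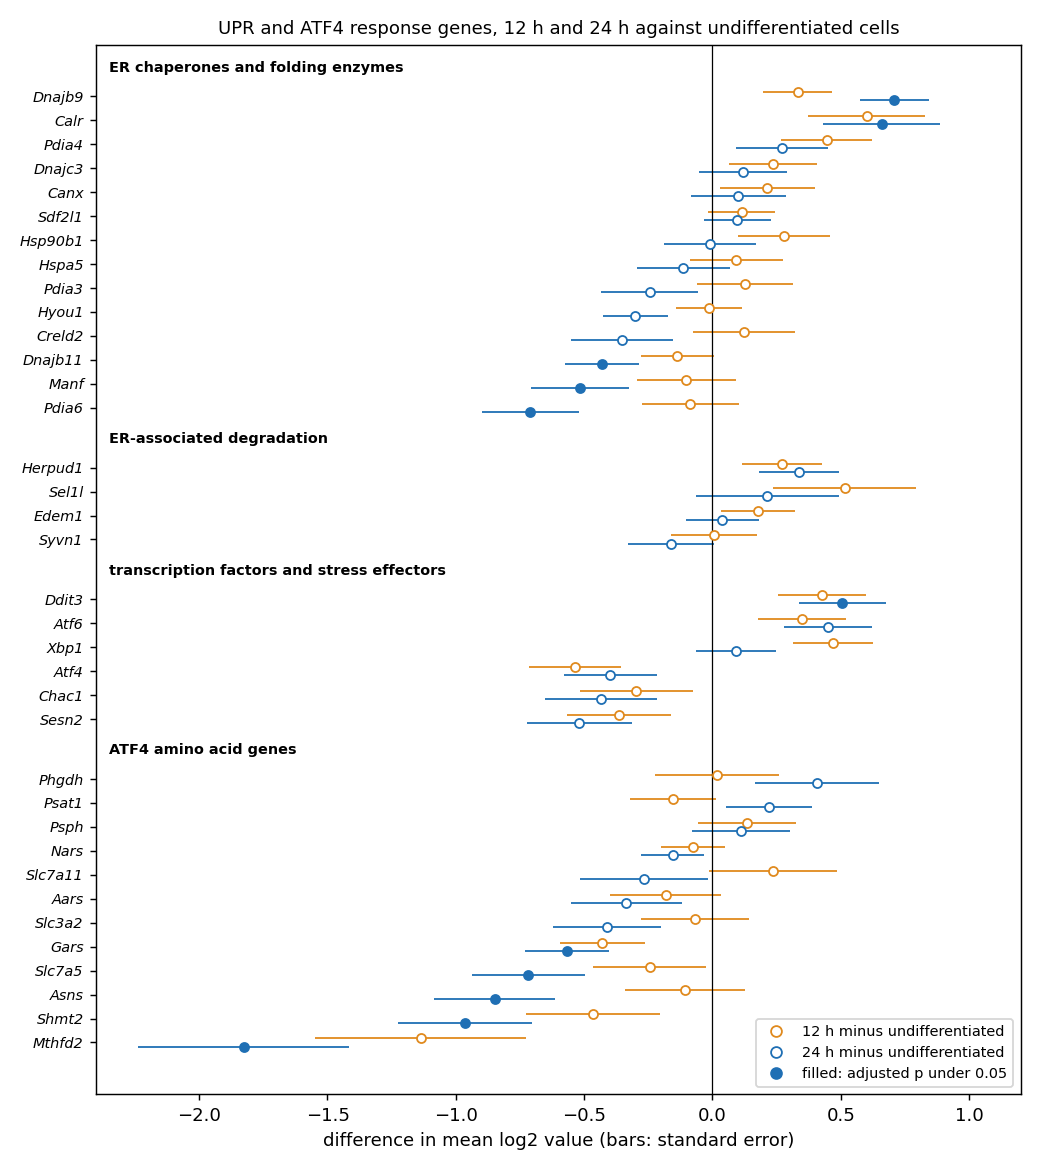
Differences in mean log2 value from undifferentiated cells at 12 h (orange) and 24 h (blue) for the 36 tested genes, ordered within 4 roles by the 24 h difference; bars are standard errors of the limma fit and filled points have an adjusted p under 0.05. The 12 ATF4 amino acid genes run from -1.83 for Mthfd2 to 0.41 for Phgdh at 24 h, and the 14 ER genes from -0.71 for Pdia6 to 0.71 for Dnajb9.

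Of the 14 ER chaperones, 2 rose at 24 h (Dnajb9 and Calr) and 3 fell (Pdia6, Manf and Dnajb11), beside 12.7% and 19.4% of all genes. The other 9, among them the major chaperones Hspa5 and Hsp90b1, did not pass the test. The median log2 difference was 0.12 at 12 h and -0.06 at 24 h, beside 0.004 and -0.06 over all genes, and no chaperone passed at 12 h. With the actin covariate the medians were -0.0586 and -0.46, beside 0.08 and 0.06 over all genes. With the second probe set the 24 h median was -0.34. Within suffixes A, B and C the medians were 0.17, 0.20 and -0.11 at 12 h and -0.04, -0.31 and -0.17 at 24 h. From 12 h to 24 h 12 of the 14 differences lay below 0, beside 4735 of 7909 genes. The median of the 14 was -0.25, against -0.06 over all genes.

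Dnajb9, an ER J-domain protein that binds Hspa5 and restrains Ire1, had log2 values of 4.89, 4.58, 5.09, 5.19 and 4.88 in undifferentiated cells, of 5.36, 5.41, 5.08, 5.08 and 5.37 at 12 h, and of 5.80, 5.51, 5.86, 5.56 and 5.44 at 24 h. Every 24 h array of Dnajb9 lay above every array of the other groups, which against the 12 h arrays held for 56 of 7909 genes. It rose by 0.71 ± 0.13 on the log2 scale at 24 h (SE), or 1.63-fold (limma adjusted p = 0.00147), with 0.33 ± 0.13 at 12 h (adjusted p = 0.129). It was higher in each of the 4 runs of consecutive title codes that held both groups, and by 0.54 to 1.07 within suffixes. The call was kept without any single array.

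Calr encodes calreticulin, a calcium-binding lectin chaperone of glycoproteins. Its log2 values were 7.63, 7.34, 7.29, 7.49 and 8.11 in undifferentiated cells, 7.97, 7.97, 7.82, 8.19 and 8.92 at 12 h, and 7.78, 8.201, 8.13, 8.73 and 8.32 at 24 h. Only undifferentiated replicate 5 reached the values of the later groups. The rise at 24 h was 0.66 ± 0.23, or 1.58-fold (limma adjusted p = 0.0366), after 0.60 ± 0.23 at 12 h (adjusted p = 0.107; 0.00658 with the suffix as a block). The call was lost without any 1 of undifferentiated replicates 1 to 4 or 24 h replicates 2 to 5, with adjusted p between 0.0510 and 0.0969, and the difference was -0.04 with the actin covariate. Canx, the membrane-bound relative of calreticulin, differed by 0.21 ± 0.19 at 12 h and 0.10 ± 0.19 at 24 h (adjusted p = 0.495 and 0.708).

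Pdia6, a disulfide isomerase that also damps Ire1 signalling, had log2 values of 5.88, 6.10, 6.12, 6.02 and 6.34 in undifferentiated cells. They were 6.00, 5.40, 6.46, 6.25 and 5.91 at 12 h and 5.12, 5.24, 5.41, 5.22 and 5.92 at 24 h. Of the 24 h arrays 4 lay below every undifferentiated array, and replicate 5 lay within their range. Pdia6 fell by 0.71 ± 0.19 at 24 h, 1.64-fold lower (limma adjusted p = 0.00968), and was lower in 4 of 4 runs (-0.87, -0.75 and -0.77 within suffixes). After median centring the adjusted p was 0.0707. Dnajb11, a soluble co-chaperone of Hspa5, fell by 0.43 ± 0.14 (adjusted p = 0.0313), and Manf, a secreted ER protein with neurotrophic activity, fell by 0.52 ± 0.19 (adjusted p = 0.0496). Both calls were lost after median centring (limma adjusted p = 0.242 and 0.250). Leaving out 1 array ended the Dnajb11 call for undifferentiated replicates 3, 4 and 5 and 24 h replicates 1, 2 and 4 (adjusted p 0.0583 to 0.0796). It ended the Manf call for all undifferentiated and 24 h replicates other than undifferentiated replicate 3 and 24 h replicate 4, and for 12 h replicates 3 and 5 (0.0507 to 0.126).

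Hspa5 encodes BiP, the ER Hsp70 that holds the sensors inactive. Its log2 values were 6.97, 7.30, 7.41, 7.41 and 7.74 in undifferentiated cells, 7.43, 7.04, 7.69, 7.54 and 7.59 at 12 h, and 7.15, 6.93, 7.15, 7.25 and 7.77 at 24 h. The groups overlapped. The differences were 0.09 ± 0.18 at 12 h and -0.11 ± 0.18 at 24 h (limma adjusted p = 0.790 and 0.662), with a 95% interval of -0.50 to 0.27 at 24 h. Hsp90b1, the ER Hsp90, differed by -0.01 ± 0.18 at 24 h (interval -0.39 to 0.37). With the mean of its probe sets Hsp90b1 was called lower at 24 h (-0.58, limma adjusted p = 0.0462).

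The other chaperones did not pass the test at either time. Pdia4, a disulfide isomerase, was 0.44 ± 0.18 higher at 12 h (limma adjusted p = 0.126) and higher in 5 of 5 runs, and 0.27 ± 0.18 at 24 h. Dnajc3, a co-chaperone that inhibits Perk, differed by 0.24 and 0.12 at 12 h and 24 h, and Sdf2l1, a partner of the J-domain proteins, by 0.11 and 0.10. Pdia3, which folds glycoproteins with calreticulin, differed by 0.13 and -0.24. Hyou1, the exchange factor of Hspa5, differed by -0.01 and -0.30, and Creld2, a secreted ER stress protein, by 0.12 and -0.35. At 24 h these last 3 were lower in 4 of 4 runs. Creld2 was called lower at 24 h with the suffix as a block and with the run as a block (-0.43 and -0.50, limma adjusted p = 0.0441 and 0.0430). Hyou1 was called lower at 24 h with the run as a random block and with array weights (-0.31 and -0.38, limma adjusted p = 0.0341 and 0.00534). These fits called 41.8% and 44.0% of all genes at 24 h.

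The 8 genes with the ER stress response element did not share a direction. At 24 h they ran from -0.71 (Pdia6) to 0.66 (Calr), with a median of -0.06, beside -0.06 over all genes. Of these 8 genes 1 was called higher and 1 lower, beside 12.7% and 19.4% of all genes. At 12 h the median of the 8 was 0.17, beside 0.004 over all genes.

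Of the 4 genes of ER-associated degradation, none passed the test, beside 7.86% of all genes at 12 h and 32.1% at 24 h. All 4 differences at 12 h were above 0, beside 3990 of 7909 genes. The median of the 4 was 0.22 at 12 h and 0.13 at 24 h. Herpud1, an ER membrane protein that organises the ubiquitin ligase complex, had log2 values of 1.81 to 2.62 in undifferentiated cells (median 2.02), 2.22 to 2.70 at 12 h and 2.34 to 2.71 at 24 h. The difference was 0.34 ± 0.16 at 24 h (limma adjusted p = 0.109), and it was called with the suffix as a block (0.37, adjusted p = 0.0495) and after median centring (0.48, adjusted p = 0.0129). Sel1l, the adaptor of the ligase, differed by 0.52 ± 0.28 at 12 h (adjusted p = 0.253) and was higher in 5 of 5 runs. Without a block the 24 h difference of Sel1l was 0.21 (limma adjusted p = 0.588). With the run as a block Sel1l was called higher at both times (0.52 and 0.48, limma adjusted p = 0.04997 and 0.0464). Of 33 alternative fits, 1 called Sel1l at 12 h and 2 at 24 h, all with the run as a block. The run block called 14.8% and 38.9% of all genes at these times. Edem1, which hands over misfolded glycoproteins, differed by 0.18 and 0.04, and the ligase Syvn1 by 0.005 and -0.16.

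Of the 6 tested transcription factors and stress effectors, 1 rose at 24 h (Ddit3) and none fell, beside 12.7% and 19.4% of all genes. The other 5 did not pass the test. The median log2 difference of the 6 was 0.03 at 12 h and -0.15 at 24 h, beside 0.004 and -0.06 over all genes. Xbp1 had its highest mean at 12 h. Its log2 values were 4.92, 5.19, 4.90, 5.41 and 4.86 in undifferentiated cells, 5.21, 5.35, 6.00, 5.79 and 5.28 at 12 h, and 5.13, 5.04, 5.18, 5.23 and 5.16 at 24 h. The 12 h replicates 3 and 4 lay above all other arrays. Over all tested genes these replicates were also the closest pair of arrays. The difference was 0.47 ± 0.16 at 12 h (limma adjusted p = 0.0729; 0.0360 with the suffix as a block) and 0.09 ± 0.16 at 24 h (adjusted p = 0.689). It was higher at 12 h in 5 of 5 runs. All 4 Xbp1 probe sets were higher at 12 h, by 0.15 to 0.66, and by 0.04 to 0.12 at 24 h. The probe sets were not assigned to the spliced or the unspliced form here.

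Atf4 had log2 values of 6.41, 6.22, 5.86, 6.61 and 6.26 in undifferentiated cells, 5.23, 5.66, 5.93, 6.09 and 5.77 at 12 h, and 5.74, 6.35, 5.70, 5.89 and 5.69 at 24 h. The groups overlapped through undifferentiated replicate 3 and 24 h replicate 2. The differences were -0.54 ± 0.18 at 12 h and -0.40 ± 0.18 at 24 h (limma adjusted p = 0.0755 and 0.104). It was called at 12 h with the suffix as a block (adjusted p = 0.0436), and at 24 h without undifferentiated replicate 3 or 24 h replicate 2 (-0.50 and -0.52, adjusted p = 0.0494 and 0.0366). The second Atf4 probe set, whose name marks possible cross-hybridisation, was lower by 1.15 ± 0.22 at 12 h and 1.01 ± 0.22 at 24 h (differences of -1.15 and -1.01, adjusted p = 0.0109 and 0.00359). Its values were 3.93 to 4.84 in undifferentiated cells, 2.57 to 3.79 at 12 h and 3.05 to 3.70 at 24 h, with no overlap.

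Ddit3, which encodes Chop, a factor linked to cell death under lasting ER stress and a target of Atf4, went the other way. Its log2 values were 2.05, 1.502, 1.27, 1.68 and 1.36 in undifferentiated cells, 2.42, 2.04, 1.79, 1.93 and 1.82 at 12 h, and 2.41, 2.02, 2.15, 2.05 and 1.78 at 24 h. Undifferentiated replicate 1 lay within the range of the later groups, and the other undifferentiated arrays lay below every later array. Ddit3 rose by 0.51 ± 0.17 at 24 h, or 1.42-fold (limma adjusted p = 0.0323), after 0.43 ± 0.17 at 12 h (adjusted p = 0.124; 0.0338 with the suffix as a block). It was higher in 5 of 5 runs at 12 h and 4 of 4 at 24 h, and by 0.55 to 0.63 within suffixes at 24 h. The call was lost without undifferentiated replicate 2, 3 or 5 or 24 h replicate 1, 3 or 4 (adjusted p 0.0538 to 0.0817).

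Atf6 differed by 0.35 ± 0.17 at 12 h and 0.45 ± 0.17 at 24 h (limma adjusted p = 0.207 and 0.0552), and was called higher at 24 h with the suffix as a block (0.49, adjusted p = 0.0250) and after median centring (0.59, adjusted p = 0.00705). Without 24 h replicate 5, undifferentiated replicate 3 or 12 h replicate 1 its adjusted p was 0.0304, 0.0334 and 0.0457. Sesn2, an Atf4 target that inhibits mTORC1, differed by -0.52 ± 0.20 at 24 h (adjusted p = 0.0615; 0.0184 without undifferentiated replicate 3, at -0.66). It was also called with the run as a random block and with the mean of all probe sets (-0.50 and -0.82, limma adjusted p = 0.0314 and 0.0372). The random block called 41.8% of all genes at 24 h. Chac1, an Atf4 target that degrades glutathione, differed by -0.43 ± 0.22 (adjusted p = 0.142). Its highest array was undifferentiated replicate 1 at 1.84, against 0.20 to 1.05 on the other 14 arrays.

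**Figure D2:**
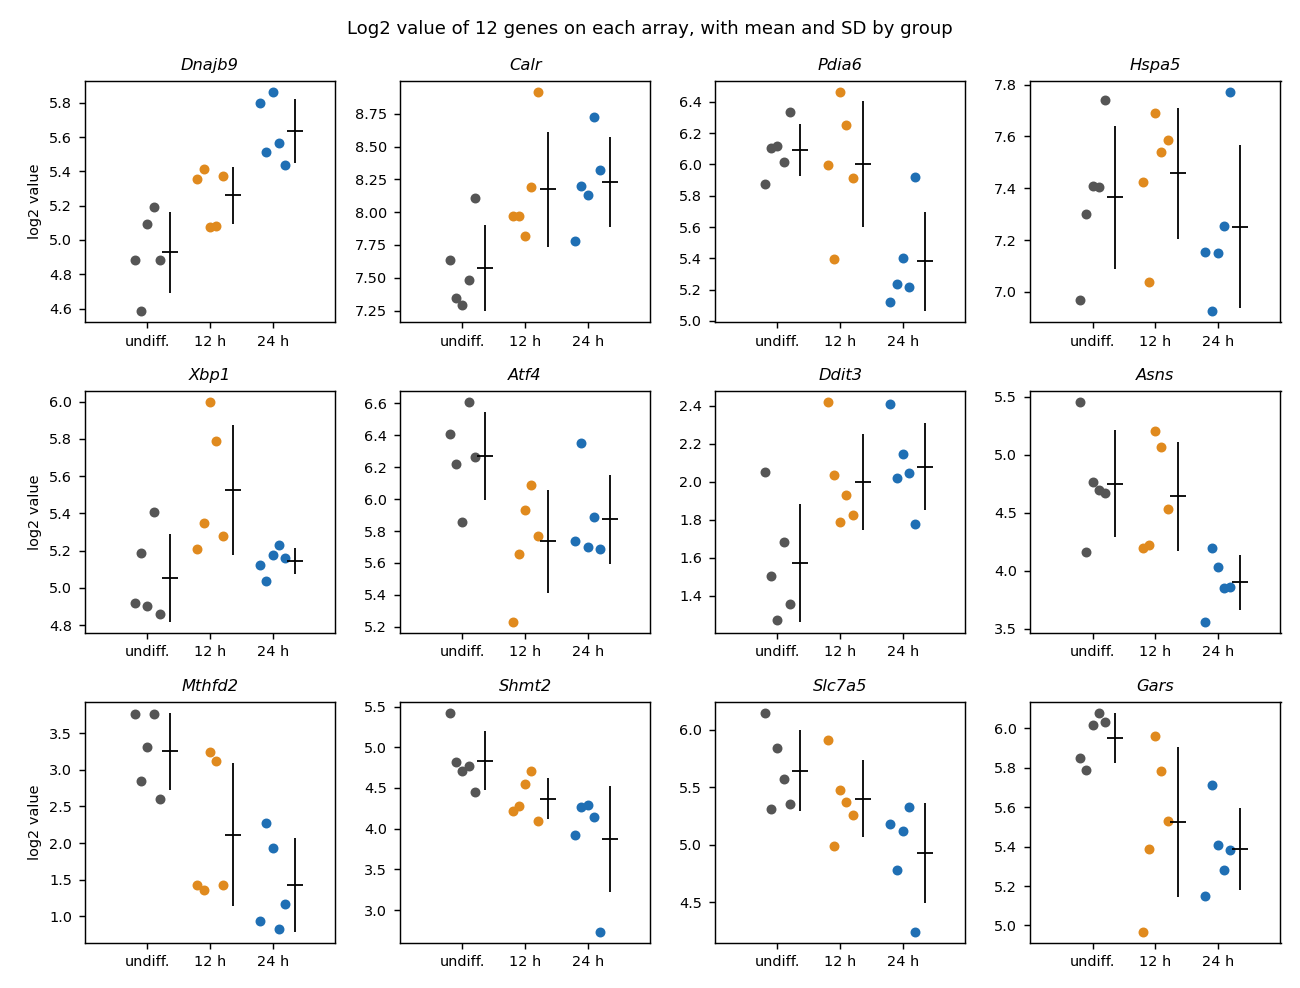
Log2 values of 12 genes on each of the 15 arrays, by group (undifferentiated, 12 h and 24 h, 5 arrays each); points are arrays and the line beside them is the mean with its SD, on an axis scaled for each gene. The 24 h arrays of Dnajb9 all lie above the undifferentiated arrays, those of Mthfd2, Shmt2 and Gars all lie below them, and the groups of Hspa5 overlap.

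The ATF4 amino acid genes were mostly lower, with 9 of 12 differences below 0 at both times, beside 3919 and 4354 of 7909 genes. At 24 h none rose, beside 12.7% of all genes, 5 fell (Mthfd2, Shmt2, Asns, Slc7a5 and Gars), beside 19.4%, and 7 did not pass the test. The median log2 difference was -0.13 at 12 h and -0.37 at 24 h, beside 0.004 and -0.06 over all genes. Relative to all genes the 24 h median was -0.31. Median centring moves all genes alike and so cannot change this relative value. Within suffixes A, B and C it was -0.26, -0.07 and -0.11 at 12 h and -0.57, -0.37 and -0.29 at 24 h.

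The mitochondrial folate enzymes, which turn serine into glycine and one-carbon units, had the largest falls among the 36 genes at 24 h. Mthfd2, a dehydrogenase that is high in dividing cells, had log2 values of 3.76, 2.84, 3.31, 3.75 and 2.598 in undifferentiated cells. They were 1.43, 1.36, 3.25, 3.12 and 1.42 at 12 h and 0.94, 2.27, 1.93, 0.82 and 1.17 at 24 h. At 12 h replicates 3 and 4, both of suffix B, lay within the undifferentiated range and the other 3 arrays lay far below it. Mthfd2 fell by 1.83 ± 0.41 at 24 h, 3.55-fold lower (limma adjusted p = 0.00406). At 12 h the difference was -1.14 ± 0.41 (limma adjusted p = 0.0951, or 0.00630 with the suffix as a block). Within suffixes it was -1.91, -0.35 and -1.17, and Mthfd2 was lower in 5 of 5 runs. With 12 h replicates 3 and 4, the closest pair of arrays, averaged the difference was -1.40 (limma adjusted p = 0.0345).

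Shmt2, the hydroxymethyltransferase of the same path, had log2 values of 5.43, 4.82, 4.70, 4.77 and 4.45 in undifferentiated cells, 4.22, 4.28, 4.55, 4.71 and 4.09 at 12 h, and 3.92, 4.26, 4.29, 4.14 and 2.73 at 24 h. Every 24 h array lay below every undifferentiated array, and 24 h replicate 5 lay furthest down. It fell by 0.96 ± 0.26 at 24 h, 1.95-fold lower (limma adjusted p = 0.0107), with -0.47 ± 0.26 at 12 h (adjusted p = 0.271). All 4 Shmt2 probe sets were lower at both times.

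Asns, asparagine synthetase, had log2 values of 5.45, 4.16, 4.76, 4.69 and 4.67 in undifferentiated cells, 4.19, 4.22, 5.20, 5.06 and 4.53 at 12 h, and 3.56, 4.19, 4.03, 3.85 and 3.86 at 24 h. The 24 h arrays lay below all 12 h arrays only narrowly, with the highest at 4.1921 and the lowest 12 h array at 4.1933. From 12 h to 24 h 175 of 7909 genes lay below without overlap. Undifferentiated replicate 2 lay within the 24 h range. Asns fell by 0.85 ± 0.23 at 24 h, 1.80-fold lower (limma adjusted p = 0.0120), and differed by -0.11 ± 0.23 at 12 h (adjusted p = 0.814). From 12 h to 24 h it differed by -0.74 ± 0.23 (adjusted p = 0.146). The call at 24 h was lost without the 4 arrays of suffix C (-0.84, limma adjusted p = 0.101). Without those arrays 14.3% of all genes were called at 24 h, against 32.1% with all arrays.

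The enzymes of serine synthesis did not pass the test, though Phgdh was called higher at 24 h with the run as a block (0.42, limma adjusted p = 0.0443). Phgdh, Psat1 and Psph differed by 0.41 ± 0.24, 0.22 ± 0.17 and 0.11 ± 0.19 at 24 h (limma adjusted p = 0.210, 0.333 and 0.691), and no difference between these genes was tested. Phgdh had log2 values of 7.18 to 8.33 in undifferentiated cells and 7.65 to 8.58 at 24 h. It was higher in 4 of 4 runs, though its probe sets, whose names mark possible cross-hybridisation, ran from -0.17 to 0.46.

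Slc7a5, the light chain of the large neutral amino acid transporter, had log2 values of 6.15, 5.31, 5.84, 5.57 and 5.36 in undifferentiated cells, 5.91, 4.99, 5.47, 5.37 and 5.26 at 12 h, and 5.18, 4.78, 5.12, 5.33 and 4.24 at 24 h. Of the 24 h arrays 4 lay below every undifferentiated array. It fell by 0.72 ± 0.22 at 24 h, 1.64-fold lower (limma adjusted p = 0.0210), and was lower in 5 of 5 runs at 12 h and 4 of 4 at 24 h. Without undifferentiated replicate 1 or 24 h replicate 5 the adjusted p was 0.0541 and 0.0571, and after median centring 0.0514. Slc3a2, the heavy chain it shares with the cystine transporter Slc7a11, differed by -0.41 ± 0.21 at 24 h (limma adjusted p = 0.147). Its adjusted p was 0.0304 without 12 h replicate 1 and 0.0103 with array weights, which called 44.0% of all genes at 24 h. Slc7a11 differed by 0.24 ± 0.25 at 12 h and -0.27 ± 0.25 at 24 h. Both chains were far higher on 12 h replicate 1 than on the other 12 h arrays: 7.04 against 5.82 to 5.94 for Slc3a2, and 2.50 against 1.02 to 1.16 for Slc7a11.

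Among the tRNA synthetases, Gars had log2 values of 5.85, 5.79, 6.02, 6.08 and 6.03 in undifferentiated cells, 4.97, 5.39, 5.96, 5.78 and 5.53 at 12 h, and 5.15, 5.71, 5.41, 5.28 and 5.38 at 24 h. All 24 h arrays lay below the undifferentiated ones, with 24 h replicate 2 close to their lowest. It fell by 0.57 ± 0.16 at 24 h, 1.48-fold lower (limma adjusted p = 0.0156), and was lower in 5 of 5 runs at 12 h (-0.43, adjusted p = 0.112; 0.0227 with the suffix as a block). The 24 h call was lost after median centring (limma adjusted p = 0.0885) and without suffix C (0.138). The share of all genes called at 24 h was 32.1% after median centring and 14.3% without suffix C. Aars and Nars differed by -0.34 ± 0.22 and -0.16 ± 0.12 (adjusted p = 0.249 and 0.352). The second Nars probe set was lower by 0.52 (-0.52, adjusted p = 0.0123), and with the mean of its probe sets Nars was called lower (-0.34, adjusted p = 0.0483).

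The 6 tested genes with the Atf4 core in their windows ran from -0.85 (Asns) to 0.34 (Herpud1) at 24 h. Their median was -0.39, beside -0.06 over all genes. Of these 6 genes 2 were called lower and none higher, beside 19.4% and 12.7% of all genes. Mthfd2 and Shmt2, which fell most, had no match in these windows.

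ER chaperones and ATF4 amino acid genes were then set side by side on each array, as the mean log2 value of each group of genes relative to its mean in undifferentiated cells. The chaperones stood at 0.16 ± 0.16 at 12 h and -0.05 ± 0.16 at 24 h (SD, n = 5), against a spread of 0.21 in undifferentiated cells. The ATF4 amino acid genes stood at -0.21 ± 0.16 at 12 h and -0.45 ± 0.10 at 24 h, against a spread of 0.22. Every 24 h array, at -0.59 to -0.35, lay below every undifferentiated array, at -0.22 to 0.36. The chaperones minus the ATF4 genes gave -0.63, 0.02, -0.05, 0.16 and 0.50 in undifferentiated cells, 0.26, 0.34, 0.32, 0.35 and 0.55 at 12 h, and 0.32, 0.19, 0.38, 0.34 and 0.75 at 24 h. The mean was 0.37 at 12 h and 0.39 at 24 h. Undifferentiated replicate 5, the only undifferentiated array of suffix C, lay within both later ranges. Within suffix C the values were 0.50 in undifferentiated cells, 0.55 at 12 h, and 0.34 and 0.75 at 24 h. Within suffix A they were -0.63 and 0.02, then 0.26 and 0.34, then 0.32. Within suffix B they were -0.05 and 0.16, then 0.32 and 0.35, then 0.19 and 0.38. These are descriptions of chosen genes and carry no test.

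**Figure D3:**
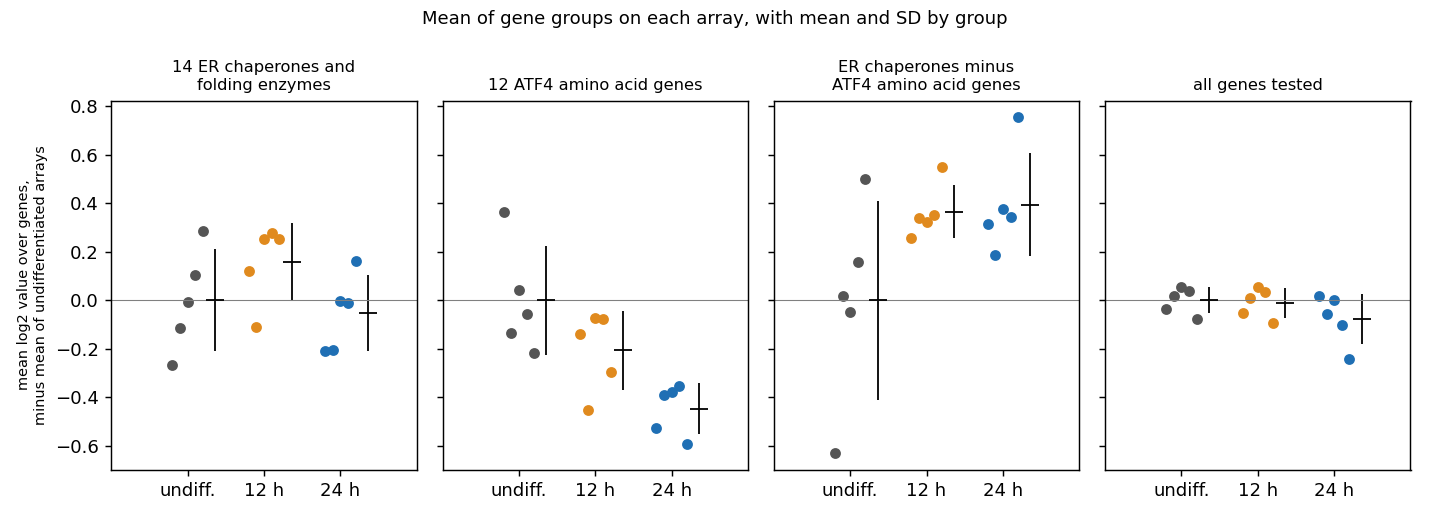
Mean log2 value over the ER chaperones, the ATF4 amino acid genes, their difference and all tested genes on each array, relative to the mean of undifferentiated arrays; points are the 5 arrays of each group and lines are mean and SD. The ATF4 genes lie at -0.59 to -0.35 on the 24 h arrays, below all undifferentiated arrays, and the chaperones overlap between groups.

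Other genes of these pathways were read from further lists, beside 12.7% of all genes called higher and 19.4% called lower at 24 h and an all-gene median of -0.06. These lists overlap: 9 tested synthetase genes are in both the ATF4 pathway and the tRNA synthetase list, and 3 of the 37 genes (Aars, Gars and Nars) are in the latter. Of 7 tested sensors and eIF2 kinases and phosphatases, none rose and 2 fell at 24 h: Eif2ak3, which encodes Perk (-0.56 ± 0.20, limma adjusted p = 0.0382), and Eif2ak2, the kinase PKR (-0.46 ± 0.14, adjusted p = 0.0182). Of 23 further genes of ER folding, translocation and glycosylation, none rose and 5 fell. Among them were the disulfide isomerase Pdia5 (-0.98, adjusted p = 0.00319), the reductase Dnajc10 (-0.72, adjusted p = 0.00357), and Rpn2 and Ddost, subunits of the oligosaccharyltransferase (-0.67 and -0.45, adjusted p = 0.00567 and 0.0129). The median of the 23 genes was -0.23 at 24 h. Of their differences from 12 h to 24 h, 22 of 23 were below 0, beside 4735 of 7909 genes. Of 10 further genes of ER-associated degradation, the derlin Derl1 rose (0.42 ± 0.14, adjusted p = 0.0297) and Derl2 fell (-0.43 ± 0.15, adjusted p = 0.0364).

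Of 25 further genes of the ATF4 pathway, 8 fell and 1 rose at 24 h, with a median of -0.26 beside -0.06 over all genes. Eif4ebp1, a repressor of cap-dependent translation, fell by 1.67 ± 0.32 (limma adjusted p = 0.00162), the neutral amino acid transporter Slc1a4 by 1.31 ± 0.26 (adjusted p = 0.00188), the aspartate aminotransferase Got1 by 1.62 ± 0.33 (adjusted p = 0.00205) and the cysteine-forming enzyme Cth by 0.97 ± 0.21 (adjusted p = 0.00346). The gene that rose was the branched-chain aminotransferase Bcat1 (0.92 ± 0.24, adjusted p = 0.00786). Among 18 cytosolic tRNA synthetases none rose and 5 fell: Cars (-0.71), Kars (-0.69), Tars (-0.60), Vars (-1.16) and Gars, of which Cars, Tars and Vars are also among the 8 above. Of 5 further folate genes 3 fell at 24 h, Mthfd1 (-0.58, adjusted p = 0.00381), Gldc (-0.74, adjusted p = 0.00700) and Shmt1 (-0.79, adjusted p = 0.00928). Mthfd1 and Shmt1, the cytosolic enzymes, had already fallen at 12 h, by 0.63 and 0.83 (adjusted p = 0.0119 and 0.0265). None of these lists had a gene called between the times.

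Some values turned on the probe set. Of 19 genes with several probe sets above the filter, the sign differed between them for 5 at 24 h (Canx, Dnajc3, Edem1, Hspa5 and Phgdh) and for 4 at 12 h. The second Hspa5 probe set differed by 0.31 ± 0.32 at 24 h, against -0.11 for the one used. The second Hsp90b1 probe set, chosen for mention after its values were seen, differed by -1.15 ± 0.48 (limma adjusted p = 0.0805), and its arrays ran from 3.58 to 5.77 in undifferentiated cells and from 2.42 to 4.99 at 24 h. The second Edem1 probe set was lower by 0.57 (-0.57, adjusted p = 0.0145), against 0.04 for the one used. By contrast, both Mthfd2 and both Asns probe sets and all 3 Calr probe sets lay on the side of 0 given above at both times. The 24 h call of Calr was nevertheless lost with its second probe set (0.47, adjusted p = 0.0639) and with the mean of its probe sets (0.49, limma adjusted p = 0.0571).

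**Figure D4:**
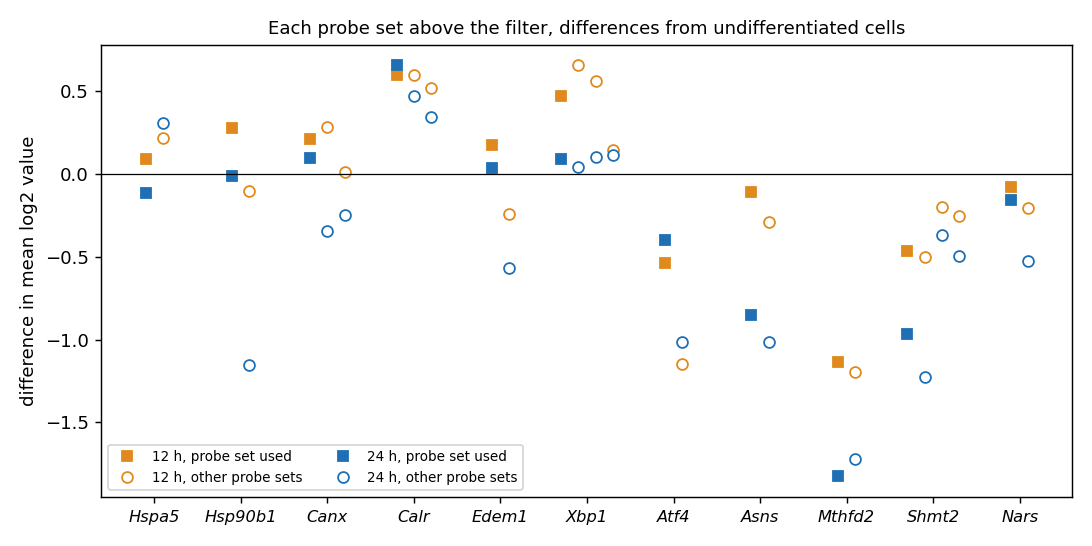
Differences in mean log2 value from undifferentiated cells at 12 h (orange) and 24 h (blue) for each probe set above the filter of 11 genes; squares are the probe set used and open circles the others. Probe sets of Mthfd2, Asns, Shmt2 and Atf4 lie on 1 side of 0, while those of Hspa5, Canx and Edem1 lie on both sides at 24 h.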

How the data were processed

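Total RNA of 15 samples was measured by biotin labelling on 15 Affymetrix arrays of mouse genes (22690 probe sets). The deposited values, made by the authors with MAS5 per the submitters' processing notes (version, settings and scaling not given in the sources used here), were read as log10: over the spike-ins they rose by 1.07 ± 0.0655 per log10 unit of concentration (SD, 15 arrays). They were multiplied by 3.32 to give log2 values, with no further normalisation. Probe sets with 1 gene symbol in the platform annotation were used (20380), the one with the highest mean per gene; the filter on low values kept genes whose mean exceeded 0.51 log2, the 40th percentile of all probe sets but controls. limma 3.58.1 in R 4.3.3 fitted all arrays with a mean per group and a variance trend; genes with a Benjamini-Hochberg adjusted p under 0.05 were called. The fit was tested on simulated data. Arrays limit the precision by their number. 12 h replicates 3 and 4 were the closest pair and were kept. The SD of their log2 differences over genes was 0.15, against 0.277 for the next closest pair. The genes, lists and tests were chosen with earlier results of these data known. Every gene is accounted for; values on all arrays are given for genes called with a fold of at least 1.5 and for Hspa5, Atf4, Ddit3, Xbp1 and Asns, to which Gars was added after its values were seen, and up to 4 called genes are named per other list, to which Vars and Bcat1 were added likewise. Runs are consecutive title codes. Alternatives changed scaling, filter, probe set, variance model, blocks, labels and single arrays; 1, which left out the array whose run holds no other group, was chosen after the data were seen. Protein sequences were not used here.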

Additional observations from a re-analysis of the deposited data

Results flagged for a closer look

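Of 111 groups examined, each 1 gene in 1 group of 5 arrays, 5 held an array far from the other 4 by Dixon's criterion, where chance flags about 1 in 20 groups. On 12 h replicate 1 the cystine transporter Slc7a11 stood at 2.4988 on the log2 scale, against 1.0188 to 1.1589 on the other 12 h arrays, and its heavy chain Slc3a2 at 7.0356, against 5.8173 to 5.9416. On 24 h replicate 5 the serine synthesis gene Psat1 stood at 8.4299, against 7.6737 to 7.7841, and the folate gene Shmt2 at 2.7312, against 3.9224 to 4.2883. On 12 h replicate 2 Hsp90b1 stood at 6.8551, against 7.1544 to 7.2698.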

How the results depend on the processing

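The labels give no replicate numbers; the runs of title codes, which pair arrays across groups, and the suffixes served as blocks. At 12 h the count of higher genes, 0 in the report, was 2 after quantile normalization, with array weights and with the run block without the lone run, and 3 with the suffix, the fixed run or the random run as a block. The count of lower genes at 12 h was 1 with the mean of probe sets and with 12 h replicates 3 and 4 averaged, 2 with the second probe set, the fixed run and the run block without the lone run, 3 with the suffix and the random run, and 0 to 2 without single arrays. At 24 h the higher genes, 3 in the report, were 5 after quantile normalization and with array weights, the suffix, the fixed run and the run block without the lone run, 0 with the file codes and with the actin covariate, and 1 to 4 without single arrays (1 without undifferentiated replicate 2, 24 h replicate 3 or 24 h replicate 4). The lower genes, 8 in the report, were 3 after median centring and without suffix C. They were 0 with the file codes and with the actin covariate, and 6 to 9 without single arrays. Of all genes 32.1% were called at 24 h after median centring and 14.3% without suffix C. Array weights called 9.69% of all genes at 12 h and 44.0% at 24 h, and the random run 18.4% and 41.8%. Quantile normalization called 11.9% and 36.6%. The shares for the suffix and the fixed run are given above. Between the times array weights gave 1 higher and 4 lower genes, beside 8.21% of all genes called. The suffix gave 1 lower gene, beside 2.55% of all genes. The array weights had not fully converged. The chaperone median at 12 h was -0.0586 with the actin covariate and -0.11 within suffix C. At 24 h it was -0.34 with the second probe set, -0.46 with the actin covariate and -0.31 within suffix B. The ATF4 median at 24 h was -0.57 within suffix A. With the file codes the medians between the times were 0.0369 for chaperones and -0.0369 for ATF4 genes. Reversed values at 24 h were Calr with the actin covariate (-0.0371), and Ddit3 (-0.0935) and Gars (0.0410) with the file codes. The causes were not tested. Of the 11 calls at 24 h, those of Dnajb9, Mthfd2, Shmt2, Asns, Gars and Pdia6 were kept without any single array.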
